A study of Mus musculus with 6 samples.

Results

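The oligoadenylate synthetase (OAS) family was examined in 4T1 cells, a mouse triple-negative mammary tumour line, that had been kept for 24 h with bone marrow-derived macrophages. The genes were Oas1a, Oas1g, Oas2, Oas3, Oasl1 and Oasl2, found by gene symbol in the deposited expression table. Of these 6 genes, 5 had 1 transcript cluster of their own, a transcript cluster being the array's gene-level probe set. Oas1a was present only on 1 cluster annotated to both Oas1a and Oas1g, which is kept apart here. The 5 genes belong to 23385 genes tested. There were 3 arrays of 4T1 cells from culture with pro-inflammatory (PI) macrophages and 3 from culture with anti-inflammatory (AI) macrophages, each replicate with macrophages of a different mouse per the series design. In both groups the macrophages were bound with CD11b antibody beads and held back on a column before RNA was taken from the tumour cells. All values are log2 expression levels after RMA, a background correction and normalisation of arrays, and every difference is PI minus AI. The 6 arrays include none of 4T1 cells cultured alone, so a difference does not say which co-culture moved a gene. The labels name neither the polarising agents nor the mouse strain.

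OAS enzymes bind double-stranded RNA and then join ATP into short chains of 2′-5′-linked oligoadenylate (2-5A). These chains act as a second messenger that leads to the cleavage of cellular and viral RNA. Most OAS genes are interferon-stimulated genes, so their transcripts are widely used as readouts of interferon signalling. Mouse has many Oas1 copies, of which Oas1a and Oas1g encode active enzymes. Oas2 and Oas3 encode larger synthetases with repeated OAS units. Among the OAS-like proteins of mouse, Oasl2 has synthetase activity, while Oasl1 lacks it and is known to block translation of the mRNA of Irf7, a transcription factor for type I interferon genes.

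The sequences just before the transcription start are shown for the members in the RefSeq promoter table, because the members differed in the direction of their PI minus AI values. Each line is the 100 bases that precede the start on the gene's own strand, in build GRCm38.p6. Capitals mark matches to the interferon-stimulated response element (ISRE), searched on both strands as GAAA, any 2 bases and GAAA, or to the gamma-activated site (GAS), searched as TTC, any 3 bases and GAA, which reads the same on both strands.
Oas1g, chr5:120887614-120887713, minus strand: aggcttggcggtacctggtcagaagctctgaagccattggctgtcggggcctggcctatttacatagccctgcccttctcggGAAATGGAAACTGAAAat
Oas1a, chr5:120907526-120907625, minus strand: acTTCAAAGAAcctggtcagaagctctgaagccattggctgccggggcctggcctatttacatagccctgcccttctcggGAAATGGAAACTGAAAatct
Oas3, chr5:120777660-120777759, minus strand: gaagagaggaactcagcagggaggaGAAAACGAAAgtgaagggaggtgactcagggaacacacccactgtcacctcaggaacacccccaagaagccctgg
Oasl2, chr5:114896834-114896933, plus strand: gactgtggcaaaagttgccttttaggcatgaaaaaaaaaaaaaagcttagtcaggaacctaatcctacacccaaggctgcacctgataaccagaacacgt
Oasl1, chr5:114923140-114923239, plus strand: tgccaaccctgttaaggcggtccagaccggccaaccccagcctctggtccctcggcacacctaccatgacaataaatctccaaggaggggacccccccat

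Oas1a and Oas1g each held 2 overlapping ISRE matches close to the start, from base -20 to -5 in Oas1a and from -18 to -3 in Oas1g. Their 100 bases were 90.2% identical over an alignment of 102 columns, while every other pair of these members had an identity of 41.1% to 51.7%. Oas3 held 1 ISRE match, from base -75 to -66. Oasl1 and Oasl2 held 0 matches to either motif within the full window of 300 bases, which reaches 50 bases past the start. The only GAS match was in Oas1a, from base -98 to -90. Of all 32851 RefSeq windows of that length, 3.44% held the ISRE letters and 8.30% the GAS letters. A match describes the letters only, and so does its absence. Oas2 is not in the promoter table.

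In the tumour fraction, Oasl2, Oas1g, Oas3 and Oas2 had higher levels in PI than in AI, by 1.70-fold, 1.59-fold, 1.52-fold and 1.38-fold. Oasl1 had the opposite direction, with a level 1.26-fold higher in AI than in PI. For each of these 5 genes the 3 PI arrays did not overlap the 3 AI arrays. None of the 5 passed an adjusted p of 0.05 in limma, with p-values adjusted over all 23385 genes, and their adjusted p ran from 0.176 to 0.617. The background share of genes past that threshold was 0.0727%, all of them higher in PI. At an unadjusted limma p under 0.05 there were 4 members higher and 1 lower, beside 4.05% of all genes higher and 3.31% lower.

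**Figure D1:**
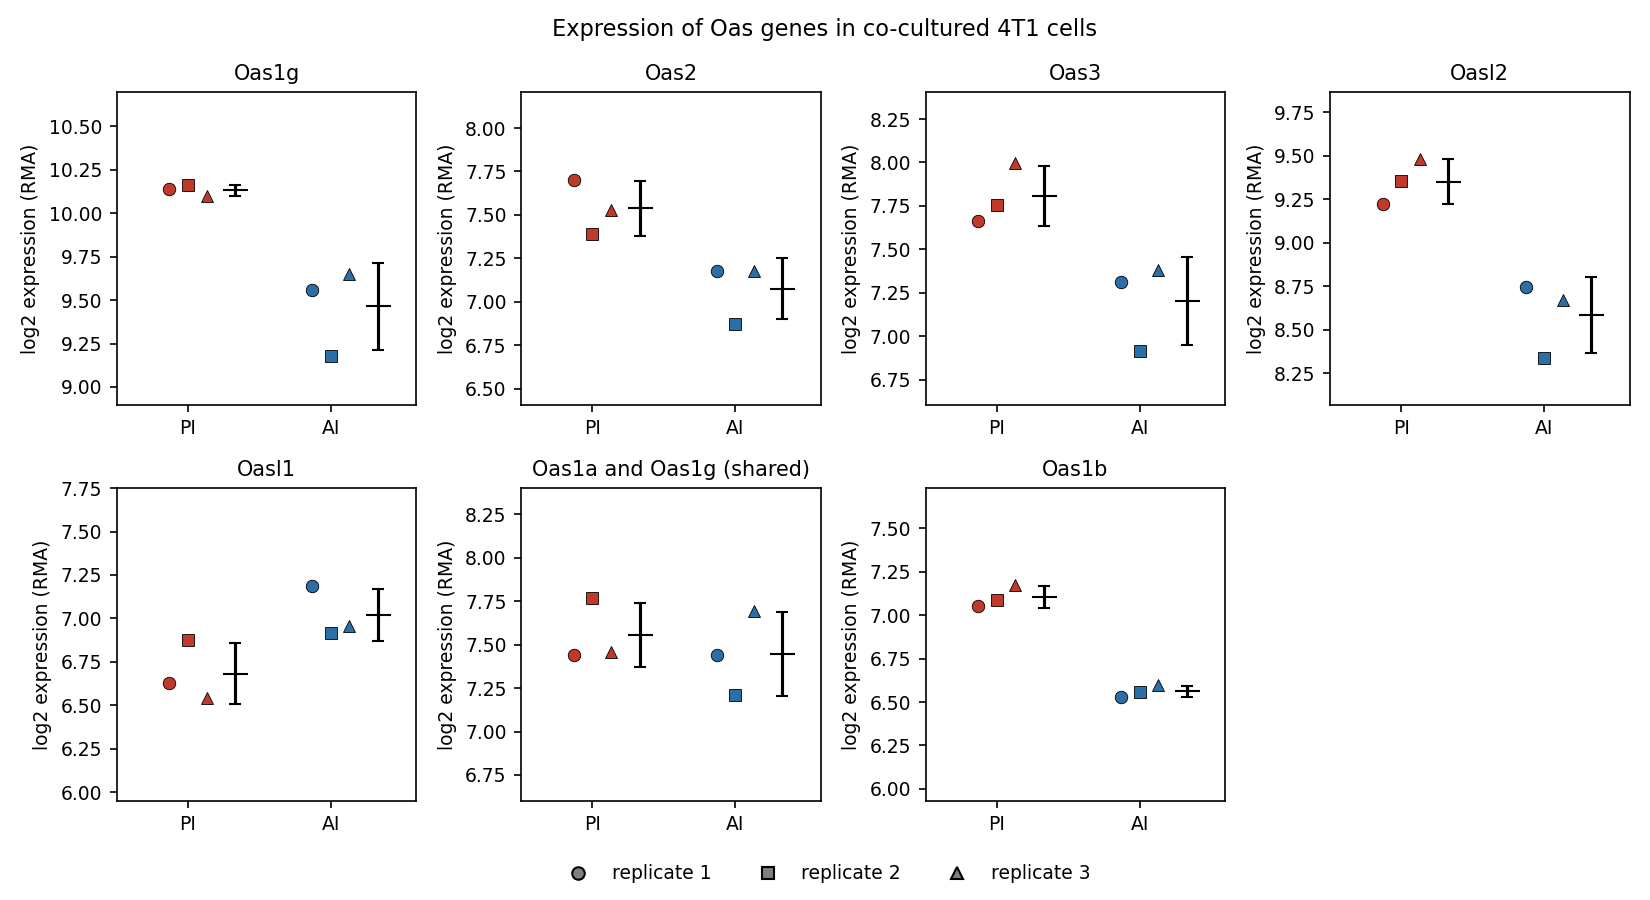
Log2 RMA expression of the 5 members with their own cluster, the cluster shared by Oas1a and Oas1g, and Oas1b. Each panel has the PI arrays on the left and the AI arrays on the right, with 1 point per array and the mean and SD (n = 3) beside them; every panel spans the same range of log2 units around its own mean. The PI points lie above the AI points for Oas1g, Oas2, Oas3, Oasl2 and Oas1b, below them for Oasl1, and overlap them in the shared cluster.

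Among the enzymes, the active OAS-like synthetase Oasl2 differed most. Its log2 levels were 9.22, 9.35 and 9.48 in PI, against 8.75, 8.33 and 8.67 in AI. All PI arrays lay above all AI arrays, as they did for 5.85% of all genes tested. The means were 9.35 ± 0.13 in PI and 8.58 ± 0.22 in AI (SD, n = 3 each), a log2 fold change of 0.77 (95% interval 0.47 to 1.07) with limma adjusted p = 0.176. By the size of this change Oasl2 held rank 50 from the highest of the 23385 genes.

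Oas1g, an active synthetase of the short OAS1 type, had log2 levels of 10.14, 10.16 and 10.10 in PI, against 9.56, 9.18 and 9.65 in AI. The PI arrays lay close together and all were above the AI arrays, which spread more widely. The SDs were 0.03 in PI and 0.25 in AI (n = 3 each). The log2 fold change was 0.67 (95% interval 0.37 to 0.97), with limma adjusted p = 0.307 and rank 74 from the highest.

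The larger synthetases had the same direction with smaller values. Oas3 had log2 levels of 7.67, 7.76 and 7.999 in PI, against 7.31, 6.92 and 7.38 in AI. The groups did not overlap, and AI replicate 2 was the lowest array. Its log2 fold change was 0.60 (95% interval 0.26 to 0.94), with limma adjusted p = 0.443. Oas2 had log2 levels of 7.70, 7.39 and 7.53 in PI, against 7.18, 6.87 and 7.18 in AI. Here too all PI arrays were the higher ones, with a gap between the nearest arrays that was narrower than the range within either group. Its log2 fold change was 0.46 (95% interval 0.18 to 0.75), with limma adjusted p = 0.494.

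Oasl1, the OAS-like protein without synthetase activity, had log2 levels of 6.63, 6.88 and 6.54 in PI, against 7.19, 6.92 and 6.95 in AI. All PI arrays lay below all AI arrays, as they did for 7.32% of all genes tested, but PI replicate 2 and AI replicate 2 were close to each other. The means were 6.68 ± 0.17 in PI and 7.02 ± 0.15 in AI (SD, n = 3 each). The log2 fold change was -0.34, the 95% interval ran from -0.62 to -0.06 and the limma adjusted p was 0.617, at rank 335 from the lowest of the 23385 genes. With an intensity trend and robust variance in limma, 76 of all 23385 genes passed, against 17 in the main fit, and 2 of the 5 members were among the 76. These 2 were Oasl2 (limma adjusted p = 0.00814) and Oas1g (limma adjusted p = 0.0155). Oasl1 did not pass (limma adjusted p = 0.460). Over all 15 alternative settings the adjusted p ranged from 0.00814 to 0.601 for Oasl2, from 0.0155 to 0.637 for Oas1g and from 0.430 to 0.817 for Oasl1.

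The fold in the authors' deposited table rests on the same levels. It is AI over PI, the inverse of the direction used here, and was 0.587 for Oasl2, 0.629 for Oas1g, 0.658 for Oas3 and 0.726 for Oas2, with 1.26 for Oasl1. The q-values in the authors' deposited table were 0.633 for Oasl2 and 0.786 for Oasl1, with the other members in between.

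Whether Oasl1 differed from the other members in its response was tested on the difference between 2 genes within each array, because the levels of separate probe sets cannot be set against each other. Oasl1 minus Oasl2 was -2.59, -2.48 and -2.94 log2 units in PI, against -1.56, -1.42 and -1.72 in AI. The groups lay well apart, with a difference of -1.11 ± 0.16 (SE) between their means. An exact two-sided permutation test over the arrays gave p = 0.1 (adjusted p = 0.1 over the 4 pairs tested), which is the smallest value that 3 arrays against 3 can give. The 4 pairs could therefore not pass 0.05 by this test.

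The other pairs had the same pattern. Oasl1 minus Oas1g averaged -3.45 ± 0.15 in PI and -2.44 ± 0.23 in AI (SD, n = 3 each), a difference of -1.01 ± 0.16 (SE). For Oasl1 minus Oas3 the difference was -0.94 ± 0.21 (SE), and for Oasl1 minus Oas2 it was -0.80 ± 0.19 (SE). Each of these 3 pairs had the PI arrays below all AI arrays and an exact permutation p = 0.1. This order and this p had to follow for every pair, that with Oasl2 included. Oasl1 already had all PI arrays below all AI arrays, and each partner gene had them above. The differences between means likewise restate the log2 fold changes of the separate genes. The pairs are therefore no separate evidence that Oasl1 differed in its response. The pairs share the Oasl1 values and so are not independent of each other.

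**Figure D2:**
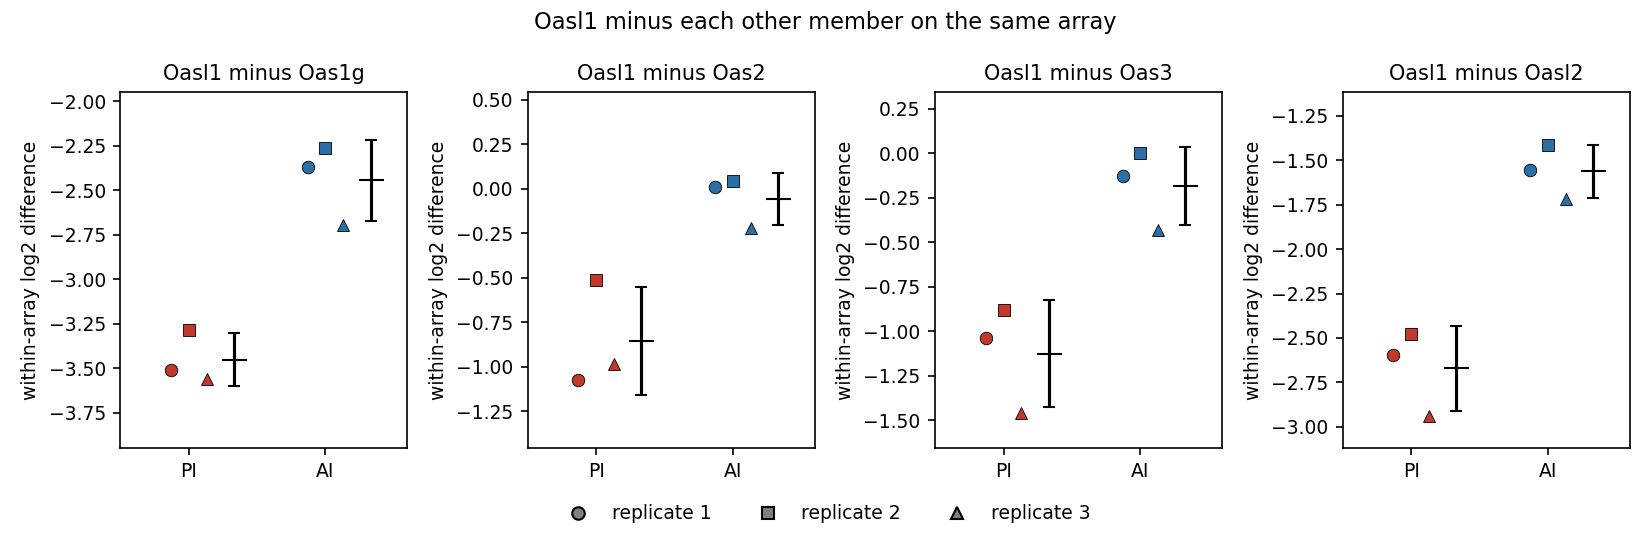
Within-array difference in log2 expression between Oasl1 and Oas1g, Oas2, Oas3 or Oasl2, with PI on the left and AI on the right of each panel, 1 point per array and the mean and SD (n = 3) beside them. In each panel the 3 PI arrays lie below the 3 AI arrays, by 0.80 to 1.11 log2 units between the means.

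The cluster annotated to both Oas1a and Oas1g had a smaller log2 fold change than the cluster of Oas1g alone. Its log2 levels were 7.44, 7.77 and 7.46 in PI, against 7.44, 7.21 and 7.69 in AI. The groups overlapped, and the log2 fold change was 0.11 (95% interval -0.27 to 0.48), with limma adjusted p = 0.924 over all 41345 clusters, of which 0.0193% passed. Oas1g minus the shared cluster, a comparison chosen after the values were seen, averaged 2.58 ± 0.16 in PI and 2.02 ± 0.09 in AI (SD, n = 3 each), with no overlap and an exact permutation p = 0.1. The shared signal cannot be assigned to either gene, so no value of Oas1a alone can be given.

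Oasl2, Oas1g, Oas3 and Oas2 also varied together within the AI group, where replicate 2 was the lowest array for all of them, by 0.20 to 0.29 log2 units below the AI mean. For Oasl1 the same array was also the lowest of the AI group, 0.10 below its mean. Among genes described below, AI replicate 2 was likewise the lowest AI array for Zbp1, Tlr3, Ifih1, Dhx58, Stat2, Irf7 and Usp18, but not for Irf1 or Mavs. The low values on that array are thus not particular to the members. Without AI replicate 2, the log2 fold changes were 0.64 for Oasl2, 0.53 for Oas1g, 0.46 for Oas3, 0.36 for Oas2 and -0.39 for Oasl1. After the group means were taken out, Oas3 and Oasl2 had the closest deviations of the members, with a Pearson correlation of 0.95 over the 6 arrays. Other pairs among Oasl2, Oas1g, Oas3 and Oas2 had correlations of 0.44 to 0.76, with Oas2 at 0.44 with Oasl2 and 0.48 with Oas3. Oasl1 had correlations of -0.04 to 0.37 with the other members. These are descriptions of 6 arrays that share normalisation.

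The family's other 6 genes were all measured, and 0 passed the test. Oas1b, known in mouse for resistance to flaviviruses and truncated in many laboratory strains, had log2 levels of 7.05, 7.09 and 7.17 in PI, against 6.53, 6.56 and 6.60 in AI. The groups were compact and clearly apart. The log2 fold change was 0.54 (95% interval 0.36 to 0.72), and its adjusted p was the lowest of the family (limma adjusted p = 0.0853). RefSeq annotates Oas1b as a transcribed pseudogene. Oas1h, Oas1e and Oas1c had log2 fold changes of 0.11, 0.09 and 0.03, and Oas1f and Oas1d had -0.08 and -0.15, all with overlapping arrays. The sign of Oas1c turned negative when arrays were centred or quantile-normalised again. Oas1d, Oas1f and Oas1h lay at low signal, at percentiles 8.23 to 12.5 of the genes tested by mean level, where a difference would be hard to measure.

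In the RefSeq annotation the members lie on chromosome 5 in separate groups of neighbours, Oasl2 beside Oasl1 and all other Oas genes in a single run from Oas2 to Oas1d. The neighbours Oasl2 and Oasl1 had opposite directions. Within the run, Oas2, Oas3, Oas1b and Oas1g had values of 0.46 to 0.67, and the genes between and beside them had -0.15 to 0.11, while Oas1a has no value of its own. The genes that flank the run, chosen after the values were seen, had log2 fold changes of 0.04 for Rasal1, 0.06 for Dtx1 and 0.10 for Rph3a, with adjusted p from 0.800 to 0.942. Beside the Oasl pair, 3 genes chosen in the same way were measured and 0 passed. 2610524H06Rik had -0.31 (adjusted p = 0.602), with its PI arrays below its AI arrays as for Oasl1, at a low signal of 2.62 in PI and 2.92 in AI. 2210016L21Rik had -0.02 and 4930519G04Rik -0.0041 (adjusted p = 0.982 and 0.997).

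**Figure D3:**
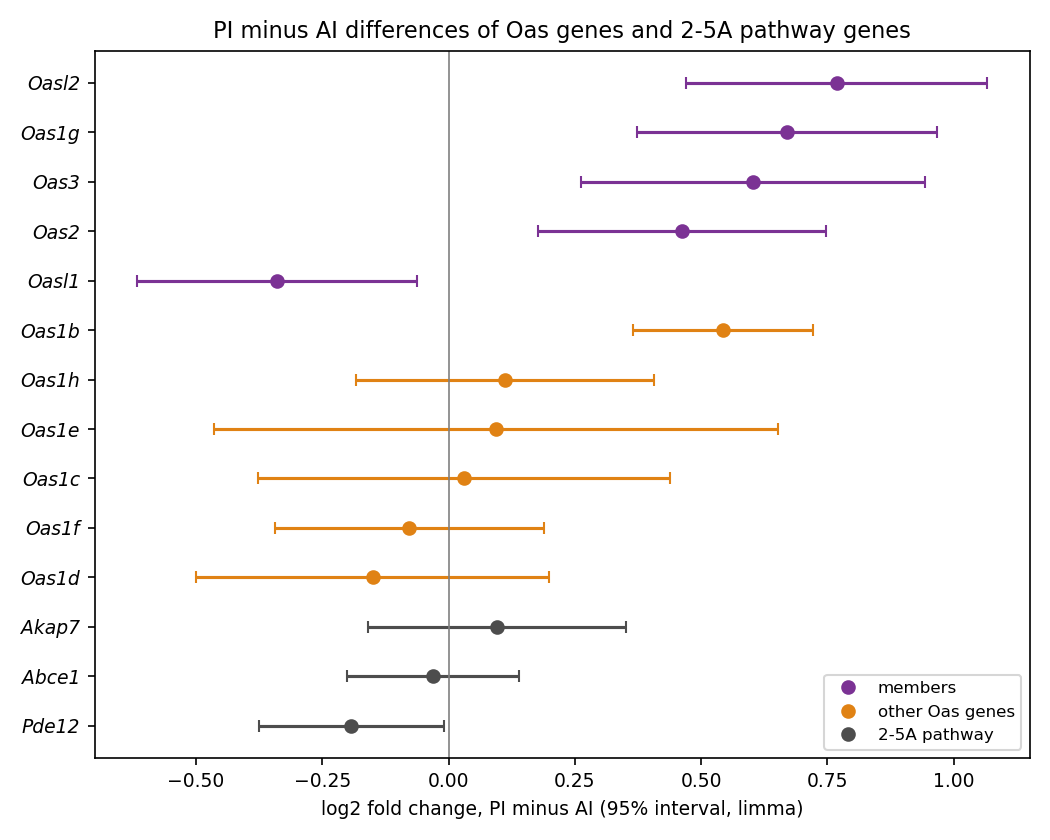
Log2 fold change (PI minus AI) with its 95% interval from limma for the members, the other Oas genes and genes of the 2-5A pathway. Intervals of Oasl2, Oas1g, Oas3, Oas2 and Oas1b lie above 0 and those of Oasl1 and Pde12 below 0, before any adjustment for the number of genes, and the remaining intervals include 0.

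Of 3 further genes of the 2-5A pathway, 0 passed in either direction. Pde12, a phosphodiesterase that degrades 2-5A, had a log2 fold change of -0.19 (95% interval -0.38 to -0.01), with limma adjusted p = 0.664. Its levels averaged 7.32 ± 0.04 in PI and 7.52 ± 0.07 in AI (SD, n = 3 each), and the arrays did not overlap. Akap7, which has a domain with 2-5A phosphodiesterase activity in mouse, had 0.10, and Abce1, a factor of ribosome recycling, had -0.03 (adjusted p = 0.871 and 0.952).

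Other sensors of double-stranded RNA and their adaptors mostly had positive values. Of 9 measured, 1 passed as higher in PI, 0 passed as lower and 8 did not pass. Positive values were found for 8 of 9, with a median of 0.31 beside a median of -0.01 over all genes. The gene that passed was Zbp1, which binds left-handed double-stranded RNA and DNA, with a log2 fold change of 1.73 (limma adjusted p = 0.0208). Among those that did not pass, Tlr3, the endosomal receptor for double-stranded RNA, had 0.63, and the cytosolic helicases Ifih1 and Dhx58 had 0.40 and 0.39. Mavs, the adaptor of the cytosolic helicases, had -0.32 and, like Oasl1, had its PI arrays below its AI arrays.

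Genes of interferon signalling had a median of 0.10 over 15 measured genes, of which 1 passed as higher in PI, 0 passed as lower and 14 did not pass. Those with the smallest p among the 14 were Irf1, a transcription factor induced by interferon gamma, with a log2 fold change of 0.87 (limma adjusted p = 0.0541), and Stat2, a subunit of the factor that binds ISRE, with 1.03 (0.0710). They were followed by Irf7, the known mRNA target of Oasl1, with 0.83 (0.333), and by Usp18, which damps signalling from the type I interferon receptor, with 0.42 (0.447). Irf7 averaged 9.50 ± 0.31 in PI and 8.67 ± 0.16 in AI (SD, n = 3 each), so its transcript and that of Oasl1 lay in opposite directions. Interferon genes themselves had a median of 0.06 over 19 measured, with 0 past the test. The values with the smallest p were 0.47 for Ifna4 and 0.42 for Ifna9 (adjusted p = 0.447 and 0.678).

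**Figure D4:**
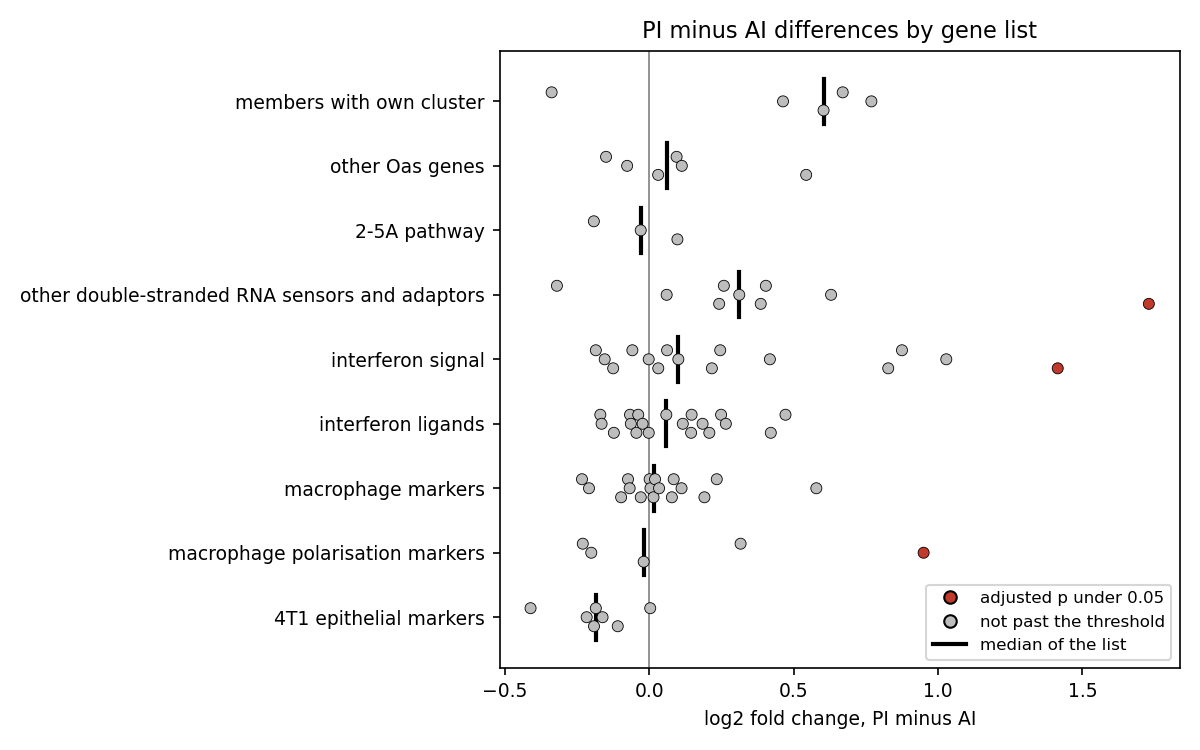
Log2 fold change (PI minus AI) of each measured gene by list, with 1 point per gene, red where the limma adjusted p is under 0.05 and grey otherwise, and a bar at the median of each list. Of the 5 members, 4 lie between 0.46 and 0.77 and Oasl1 lies at -0.34, while macrophage markers centre at 0.01.

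The genes most like each member over the 6 arrays were ranked by Pearson correlation among 10934 genes above the median level. Since the arrays form 2 groups, these correlations partly restate the PI minus AI difference. For Oasl2 they were H2-Q5, Isg15, Chsy3, Usp18 and Parp12, with correlations of 0.989 to 0.991. Oas3 was closest to Xaf1 (0.999), followed by Usp18, Lgals9, Pramel33 and Ifi44. Oas1g was closest to Rnf135 (0.994), then Itm2b, Adar, Ifi44 and Zfp763. Several of these are known interferon-stimulated genes, among them Isg15, Usp18, Ifi44, Xaf1, Parp12, Lgals9 and Adar. Oas2 was closest to Mir1895, Tnfaip8l2, Fam229a, Vmn1r119 and Denn2b (0.970 to 0.984). Oasl1 was closest to Eif3i, Mtmr12, the unnamed locus LOC100862021, Ccdc93 and Nup43 (0.980 to 0.994), and their log2 fold changes ran from -0.31 to -0.05. They are given as a description, without a test.

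Macrophage transcripts in the tumour fraction were compared beside these values. Of 17 macrophage markers 0 passed, 11 had positive values, and the count of positive values was 8 after a repeated quantile normalisation and 6 after centring. The summed linear level of the 17 was 778 to 841 in the PI arrays and 824 to 855 in the AI arrays. Cd14 and Cd68 had the highest levels of the 17 and so weighed most in this sum. The log2 fold changes were 0.01 for Itgam, which encodes CD11b, 0.03 for Cd68, 0.00 for Adgre1, -0.10 for Csf1r, -0.21 for Ptprc and 0.19 for Lyz2. Except for Cd68 at percentile 76.7 of the genes tested by mean level, these lay at low signal, where a difference would be hard to measure. Their percentiles were 14.4 for Itgam, 22.1 for Ptprc, 27.5 for Csf1r, 29.4 for Lyz2 and 34.0 for Adgre1. The markers with the smallest p were Mpeg1, which encodes a pore-forming protein of macrophages, and Cd14, a co-receptor for lipopolysaccharide. Mpeg1 had a log2 fold change of 0.58 (limma adjusted p = 0.476) with its PI arrays above its AI arrays, the same direction as Oasl2, Oas1g, Oas3 and Oas2. Cd14 had -0.23 (limma adjusted p = 0.662) with its PI arrays below its AI arrays, and Cx3cr1 had 0.23 with overlapping arrays. Of 5 markers of macrophage polarisation, 1 passed and 4 did not. Nos2, the inducible nitric oxide synthase, passed and was higher in PI, with a log2 fold change of 0.95 (limma adjusted p = 0.0319). Of 7 epithelial markers of the tumour cells, 6 had negative values, among them Krt14 at -0.41 and Epcam at -0.19, and 0 passed. All 7 were negative after a repeated quantile normalisation and after centring. Among all genes 47.3% had positive values. For 3 of the 7 the PI arrays lay below the AI arrays, as they did for 7.32% of all genes tested. The part of either cell type's RNA in the OAS values was not tested, and in such bulk samples fewer cells of a type and less RNA per cell cannot be told apart. The keratin genes on the epithelial list had mean log2 levels of 10.70 in PI and 10.81 in AI for Krt8, 10.89 in PI and 11.11 in AI for Krt18, 7.47 in PI and 7.66 in AI for Krt7, and 5.86 in PI and 6.28 in AI for Krt14. Krt8 and Krt7 were named after their values were seen.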

How the data were processed

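The authors' deposited log2 values per transcript cluster were used, 41345 clusters on 6 arrays. The submitters' processing notes name RMA and Affymetrix Expression Console and give no version. Build and array annotation: not given in the sources used here. The authors' p-values, q-values and fold are in the same table per the file headers, and the fold equalled AI over PI for all 41345 clusters. The second deposited table held the same values, and there were 0 unused per-sample columns.

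Clusters with 1 symbol were named through RefSeq (GRCm38.p6) by Entrez identifier, and the cluster of highest mean stood for each of 23385 genes. The PI against AI fit used limma (version 3.58.1, R version 4.3.3), two-sided, with group as its single term, Benjamini-Hochberg adjustment over all genes and a threshold of 0.05. The fit was tested on simulated data. The number of arrays limits precision, with a median standard error of 0.11 for a log2 fold change. Correlations between arrays were 0.987 to 0.990. Replicates differ in the mouse that gave the macrophages, while the tumour line was shared.

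The members, lists, tests and alternatives were chosen with earlier results of these data known. Named were all members, all genes of the lists of Oas and 2-5A pathway genes, and of other lists the genes past the threshold and up to 4 others of smallest p, some of which are not printed. Itgam, Cd68, Adgre1, Csf1r, Ptprc and Lyz2 were always named. For each member the 5 best-correlated genes were named, leaving out symbols of Gm with digits or with Rik. Genes outside this rule are marked. The passing gene of the interferon signal list is counted and is not reported here, and a further gene of the 2-5A pathway list was left out. Promoter sequences are from RefSeq, with windows for 5 of the 6 members, and promoter pairs were aligned globally. Protein sequences were not used here. Alternatives changed normalisation, centring, filters, the variance model, the block, the clusters used and the arrays included.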

Additional observations from a re-analysis of the deposited data

How the results depend on the processing

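Over 15 alternative settings the log2 fold changes were 0.64 to 0.85 for Oasl2, 0.53 to 0.76 for Oas1g, 0.46 to 0.69 for Oas3, 0.36 to 0.54 for Oas2 and -0.44 to -0.25 for Oasl1. Only the repeated quantile normalisation and the centring could have reversed a direction, and neither did. The other settings kept the members' log2 fold changes or left out 1 array of groups that did not overlap. The number of members past the threshold was 0, and 2 with an intensity trend and robust variance, where Oas1g (0.67) and Oasl2 (0.77) passed with the same log2 fold changes as before. The difference of Oasl1 from Oasl2 ranged from -1.20 to -0.97 over 10 settings. The 17 genes past the threshold among all genes were all higher in PI. The count was 42 (40 higher in PI and 2 lower) above the median level and 4 (3 higher and 1 lower) with a floor at the 20th percentile. With a trend and robust variance it was 76 (69 higher and 7 lower). An unmoderated test gave 2, both lower in PI and so not among the 17. With all clusters tested it was 8, all higher. The cause of these changes was not tested. Leaving out each array in turn gave 1 to 14 genes and 0 members, where the omission of PI replicate 2 left 1 gene, that of PI replicate 3 left 4, and that of AI replicate 1 and of AI replicate 3 left 7 each. In the fit with a replicate block, 1 gene and 0 members passed, with adjusted p of 0.422 for Oasl2 and 0.661 for Oasl1. Deviations from the group means had correlations of 0.006 to 0.057 between same-numbered PI and AI arrays, and of -0.075 to 0.038 between differently numbered ones. These values do not settle whether same-numbered arrays share a mouse. The replicate numbers are not stated to mark a shared mouse, so they were not taken to pair the arrays.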
